A study of Mus musculus with 25 samples.

Results

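Yap1, Wwtr1 (which encodes TAZ), Tead1 and 7 genes known as targets or regulators of YAP were followed in bulk RNA-seq of mouse E0771 tumours. The genes were chosen by symbol, with earlier results of these data known. All 10 were found among the 25006 entries of the deposited table, where Ccn2 and Ccn1 carry their older symbols Ctgf and Cyr61. The 3 anti-CD73 libraries came from C57BL/6 mice with E0771 tumours, a mammary carcinoma line of that strain, that were given an antibody against CD73 every 3 days. The 3 control libraries came from tumours with the treatment label "con", which the labels describe no further. Each library is labelled as CD8+ T cells enriched from the tumour microenvironment, and the labels give neither the age nor the number of the animals. CD73 is the ecto-enzyme encoded by Nt5e that makes adenosine from AMP outside cells, and the comparison asks which transcripts differed when it was targeted. Spleen CD8+ T cells cultured for 7 days make up the remaining 19 of 25 samples and were not analysed here.

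YAP and TAZ are transcriptional coactivators of the Hippo pathway. When the kinases LATS1 and LATS2 are active, they phosphorylate YAP and TAZ, which then stay in the cytoplasm or are degraded. When they are not, YAP and TAZ enter the nucleus, bind the DNA-binding TEAD factors and turn on genes such as Ccn1, Ccn2 and Ankrd1. Several targets, among them Amotl2 and Lats2, hold YAP back and so form negative feedback. The pathway is best known from adherent cells such as epithelium, fibroblasts and endothelium, where it responds to cell contact and matrix stiffness. Transcript levels do not show where the YAP protein was or whether it was phosphorylated.

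The libraries held between 10180624 and 17161679 reads in genes. Transcripts that define T cells were scarce in material labelled as CD8+ T cells: Cd8a, the alpha chain of CD8, stood at 90.2, 82.6 and 35.0 normalized counts in anti-CD73 replicates 1, 2 and 3, against 122, 7.60 and 24.7 in control replicates 1, 2 and 3. A normalized count is a gene's read count divided by a factor for the depth of its library. The 6 measured T cell markers summed to between 227 and 401 normalized counts in anti-CD73 libraries and between 103 and 455 in control libraries, where the 455 came from control replicate 1 and the others stood at 103 and 150. On the log2 scale all 6 of these markers lay higher after anti-CD73, with a median log2 fold change of 0.68, and none passed the test. Control replicate 1 was nevertheless the highest library for Cd8a, Cd8b1, Cd3e and Cd3g. Krt8, a keratin of epithelial cells, ranged from 2000 to 2651 in anti-CD73 libraries and from 1856 to 4559 in control libraries. Control replicate 1 stood apart. Its log2 values differed from the average of the other controls with an SD of 0.754 over the 12262 genes tested, and the other controls differed between themselves with an SD of 0.345. Fold changes are therefore also given without it. Control replicate 1 was singled out from these same values, and leaving it out keeps the controls that were more alike. The p-values without it may thus be too small and are given as a description. With any other library left out, limma called no gene. Nothing in the labels says that replicates are separate animals, and the spread on which each p-value rests may therefore be technical. In such mixed material, fewer cells of a type and less RNA per cell cannot be told apart.

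After anti-CD73, 3 of the 10 genes lay below every control: the targets Ccn2, Amotl2 and Ccn1. Ccn2 stood at 0.447 times its control mean, Amotl2 at 0.620 times and Ccn1 at 0.799 times. YAP itself, TAZ, TEAD1 and the other targets had overlapping groups. No member passed the test over all genes (0 of 10; smallest adjusted p = 0.205, limma-trend with Benjamini-Hochberg adjustment over 12262 genes). Neither did any other gene, so the background is 0.00% of genes called. At an unadjusted p under 0.05 the count was 3 of 10, all lower, against 15.5% of all genes tested in either direction (6.82% lower, 8.69% higher). Without overlap the count was again 3 of 10, against 23.5% of all genes in either direction and 12.0% lower. The genes were chosen with earlier results of these data known, so such counts describe them and do not test an excess. On read counts recovered from the table, edgeR made 0 calls among the 10 genes, against 0.00% of all genes, and DESeq2 made 0, against 4.85% of all genes (1.98% lower). Without control replicate 1, limma called 2 of the 10 genes, Ccn2 and Amotl2, both lower, against 22.2% of all genes in either direction and 10.3% lower. Without it edgeR called the same number, 2, all lower, against 9.70% of all genes lower, and DESeq2 called 3, all lower, against 9.54% of all genes lower.

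**Figure D1:**
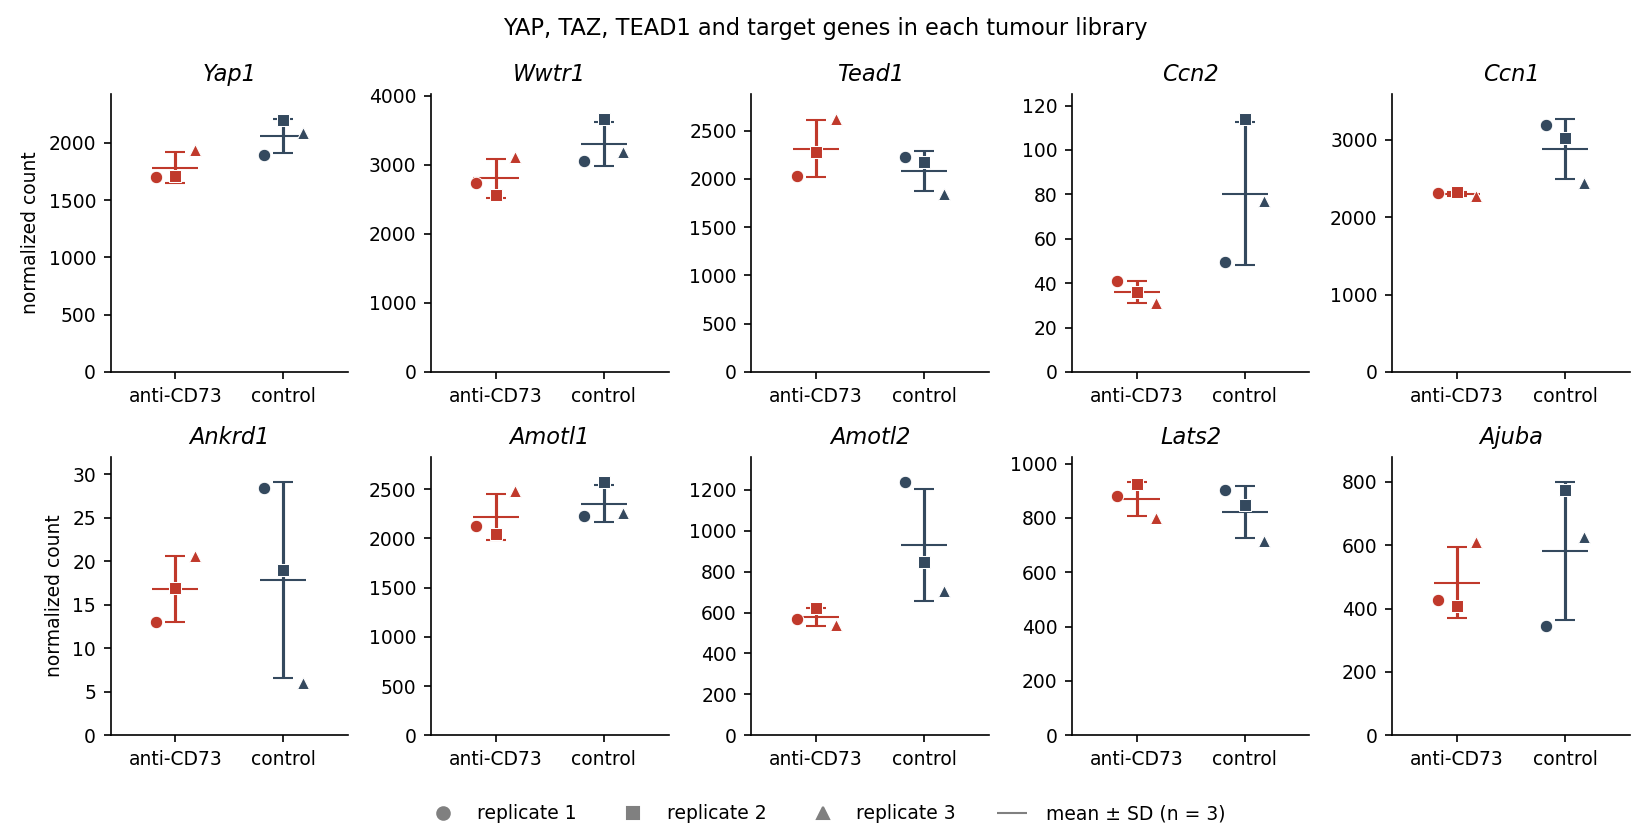
Normalized counts (y axis, linear from 0) of the 10 genes in the 3 anti-CD73 libraries (left, red) and the 3 control libraries (right, dark blue); symbols mark the replicate number, the long bar the mean and the whiskers 1 SD. Ccn2, Amotl2 and Ccn1 lie below every control in all 3 anti-CD73 libraries, and the groups of the other 7 genes overlap.

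Yap1 and Wwtr1, the coactivator genes, lay slightly lower after anti-CD73 without passing. Yap1 (ENSMUSG00000053110; mm10 chromosome 9, 7931999 to 8004638) stood at 1704, 1713 and 1936 normalized counts in anti-CD73 replicates 1, 2 and 3, against 1898, 2196 and 2085 in control replicates 1, 2 and 3. The groups overlap only through anti-CD73 replicate 3, which lay above control replicate 1. The log2 fold change was -0.21 (SE 0.11, adjusted p = 0.423 by limma; -0.26 and 0.0574 without control replicate 1, with adjusted p from 0.0574 to 0.845 over the alternatives). Wwtr1 (ENSMUSG00000027803; mm10 chromosome 3, 57455644 to 57575910) had 2736, 2565 and 3112 normalized counts in anti-CD73 libraries and 3061, 3667 and 3183 in control libraries. Its groups overlap in the same way, with anti-CD73 replicate 3 just above control replicate 1. On the log2 scale the difference was -0.24 (SE 0.12, adjusted p = 0.408 by limma; -0.29 and 0.0741 without control replicate 1, with 0.0741 to 0.853 over the alternatives).

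Tead1 encodes one of the 4 TEAD proteins, which carry YAP and TAZ to DNA. Tead1 (ENSMUSG00000055320; mm10 chromosome 7, 112679356 to 112906784) had 2032, 2280 and 2621 normalized counts in anti-CD73 replicates 1, 2 and 3, against 2231, 2173 and 1843 in control replicates 1, 2 and 3. Its groups overlap widely, with the highest and the lowest library on opposite sides (log2 fold change 0.15, SE 0.14, adjusted p = 0.642 by limma; 0.20 without control replicate 1). Tead2 stood at 995, 1073 and 1268 normalized counts in anti-CD73 libraries and at 546, 945 and 1022 in control libraries, a log2 fold change of 0.45 (SE 0.24, adjusted p = 0.416 by limma). Control replicate 1 was the lowest library, and without it the log2 fold change was 0.17. Tead4 had 1265, 1377 and 1555 normalized counts in anti-CD73 libraries and 928, 1691 and 1722 in control libraries. Control replicate 1 was again the lowest library, and the log2 fold change of Tead4 was 0.00 with it (SE 0.24) and -0.29 without it. Tead3 lay between 121 and 172 normalized counts in anti-CD73 libraries and between 55.8 and 170 in control libraries, with a log2 fold change of 0.39 that turned to -0.11 without control replicate 1.

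Of the list of TEAD partners, which also holds the Vgll genes for cofactors that compete with YAP, 7 of 10 genes passed the filter of a mean of at least 10. The number of these 7 without overlap between groups was 0, against 23.5% of all genes tested. Their median log2 fold change was 0.00, against 0.00 for all genes, and without control replicate 1 it was -0.25, against -0.02 for all genes. Vgll4, known as an antagonist of YAP on TEAD, had a mean of 641 ± 26.3 normalized counts in anti-CD73 libraries and 706 ± 113 in control libraries (SD, n = 3 each), a log2 fold change of -0.13, and -0.25 without control replicate 1. It was chosen for naming after its values were seen. Vgll1 had no read in any library, and Vgll2 and Vgll3 did not pass the filter.

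Ccn2 and Ccn1 encode secreted matricellular proteins of the CCN family and are the targets most used as a readout of YAP. Ccn2 (ENSMUSG00000019997; mm10 chromosome 10, 24595442 to 24598683) stood at 40.9, 36.0 and 30.8 normalized counts in anti-CD73 replicates 1, 2 and 3, against 49.8, 114 and 77.1 in control replicates 1, 2 and 3. All 3 anti-CD73 libraries lay below all 3 controls, but control replicate 1 lay closer to them than to control replicate 2. These values rest on few reads: 44, 34 and 30 in anti-CD73 libraries and 49, 90 and 103 in control libraries. The exact 95% Poisson interval of the 44 reads of anti-CD73 replicate 1 (32.0 to 59.1) overlaps that of the 49 reads of control replicate 1 (36.2 to 64.8), and both intervals cover counting error only. The log2 fold change of Ccn2 was -1.07 (SE 0.33, 95% interval -1.83 to -0.30, adjusted p = 0.205 by limma). Without control replicate 1 it was -1.37 (SE 0.26, adjusted p = 0.0076), and over all 19 alternatives it ranged from -1.38 to -0.78, with adjusted p from 0.00103 to 0.688.

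Ccn1 (ENSMUSG00000028195; mm10 chromosome 3, 145646971 to 145649985) was measured with far more reads, between 2196 and 3259 per library. It had 2307, 2325 and 2268 normalized counts in anti-CD73 replicates 1, 2 and 3, against 3182, 3014 and 2439 in control replicates 1, 2 and 3. The SD over the anti-CD73 libraries was 28.9 normalized counts, against 390 over the controls, and control replicate 3 was the control nearest to them. Its difference on the log2 scale was -0.31 (SE 0.13, 95% interval -0.61 to -0.02, adjusted p = 0.3 by limma), and -0.24 without control replicate 1 (adjusted p = 0.111, with 0.111 to 0.758 over the alternatives). Control replicate 1, the lowest control for Ccn2, was thus the highest for Ccn1. Of the rest of the CCN family, Ccn4 had a mean of 20.3 ± 10.3 normalized counts in anti-CD73 libraries and 16.6 ± 8.50 in control libraries (SD, n = 3 each; log2 fold change 0.26, and 0.63 without control replicate 1). Ccn3, Ccn5 and Ccn6 did not pass the filter.

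The window before the Ccn1 start holds a copy of the core sequence that TEAD factors bind, and so do the windows of Ankrd1, Ajuba, Amotl2, Yap1 and Wwtr1. They are shown because TEAD factors are known to bind DNA through this core. The search was for GGAATG and its reverse complement CATTCC, thus on both strands. It covered the 250 bases before each annotated start that had a window (RefSeq, GRCm38.p6). It found a copy in 6 of the 8 members with a window, against 14.4% of the 27025 genes with one. The members are in part known TEAD targets, so that count is a description of them. The sequences run 5' to 3' on the gene's strand, with the core in capitals. Those of Ccn1 (chr3:145649986-145650235, minus strand), Ankrd1 (chr19:36119845-36120094, minus strand) and Ajuba (chr14:54577662-54577911, minus strand) end at the base before the start.
Ccn1: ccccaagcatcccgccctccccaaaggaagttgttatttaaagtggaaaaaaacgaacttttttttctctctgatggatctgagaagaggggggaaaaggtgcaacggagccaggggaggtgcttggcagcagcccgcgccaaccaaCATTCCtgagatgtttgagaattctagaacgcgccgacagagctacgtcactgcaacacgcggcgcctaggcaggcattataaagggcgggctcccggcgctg
Ankrd1: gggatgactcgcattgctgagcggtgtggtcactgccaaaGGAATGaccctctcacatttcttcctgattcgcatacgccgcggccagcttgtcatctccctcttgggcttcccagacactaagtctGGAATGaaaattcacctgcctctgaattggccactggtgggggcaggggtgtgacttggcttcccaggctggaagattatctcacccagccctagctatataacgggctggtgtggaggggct
Ajuba: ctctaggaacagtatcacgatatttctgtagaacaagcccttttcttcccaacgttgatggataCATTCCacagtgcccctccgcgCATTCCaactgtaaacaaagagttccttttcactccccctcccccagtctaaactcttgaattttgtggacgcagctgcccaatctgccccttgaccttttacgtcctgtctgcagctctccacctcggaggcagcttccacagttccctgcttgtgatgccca
For the other genes the 30 bases around the core are given: Amotl2 at chr9:102717727-102717756 on the plus strand, Yap1 at chr9:8004720-8004749 and Wwtr1 at chr3:57576029-57576058, both on the minus strand.
Amotl2: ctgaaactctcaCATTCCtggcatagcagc
Yap1: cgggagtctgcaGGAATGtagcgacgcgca
Wwtr1: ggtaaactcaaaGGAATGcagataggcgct
The first base of the core lay 103 bases before the start in Ccn1, 210 and 123 in Ankrd1, and 186 and 164 in Ajuba. In Amotl2 it lay 65 bases before an annotated start that is not the outermost one. The Amotl2 site shown thus lies within the span of the gene. The Yap1 window too does not belong to the outermost start. The windows of Lats2 and Amotl1 did not hold these letters. None of these windows belongs to the outermost start of its gene, so the bases before that start were not searched in full. Genes with a core were thus found both among those that lay below every control (Ccn1, Amotl2) and among those with overlapping groups (Ankrd1, Ajuba, Yap1, Wwtr1).

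Ankrd1 encodes a muscle ankyrin repeat protein that is strongly induced by YAP in many cells, and its values rested on few reads. Ankrd1 (ENSMUSG00000024803; mm10 chromosome 19, 36111965 to 36119844) had 14, 16 and 20 reads in anti-CD73 replicates 1, 2 and 3, against 28, 15 and 8 reads in control replicates 1, 2 and 3. These correspond to 13.0, 16.9 and 20.6 normalized counts in anti-CD73 libraries and 28.4, 19.0 and 5.99 in control libraries. The controls spread more widely than the anti-CD73 libraries and enclose them. The log2 fold change was 0.13 with a 95% interval of -1.16 to 1.43 (adjusted p = 0.931 by limma), so a difference of the size seen for Ccn2 lies within that interval. The direction turned with the test and the scaling: it was -0.03 by edgeR, -0.06 by DESeq2 and -0.175 after quantile normalization. Without control replicate 1 it was 0.57. Its relative Ankrd23 stood at 107, 85.8 and 111 normalized counts in anti-CD73 libraries and 42.6, 63.4 and 92.1 in control libraries (log2 fold change 0.67, adjusted p = 0.338 by limma; 0.39 without control replicate 1).

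Amotl1 and Amotl2 encode angiomotin-like scaffold proteins that bind YAP and hold it at cell junctions, and Amotl2 is itself a YAP target. Amotl2 (ENSMUSG00000032531; mm10 chromosome 9, 102717091 to 102733418) had 568, 625 and 537 normalized counts in anti-CD73 replicates 1, 2 and 3, against 1238, 848 and 705 in control replicates 1, 2 and 3. All anti-CD73 libraries lay below all controls, and control replicate 1 was the highest library. The log2 fold change was -0.65 (SE 0.21, 95% interval -1.14 to -0.16, adjusted p = 0.217 by limma). Without control replicate 1 the difference was smaller, -0.43 (SE 0.11), but the spread among controls was smaller too and the adjusted p was 0.03. Over the 19 alternatives it ranged from -0.83 to -0.41, with adjusted p from 0.0249 to 0.675.

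Amotl1 (ENSMUSG00000013076; mm10 chromosome 9, 14541966 to 14662974) showed no such gap. It stood at 2126, 2047 and 2483 normalized counts in anti-CD73 libraries and at 2230, 2571 and 2260 in control libraries, with groups that overlap (log2 fold change -0.09, SE 0.12, adjusted p = 0.77 by limma; -0.12 without control replicate 1). Its 95% interval of -0.37 to 0.20 on the log2 scale leaves out the estimate for Amotl2. The interval of Amotl2, -1.14 to -0.16, overlaps it, so these intervals do not show that the fold changes of both genes differ. The third angiomotin gene, Amot, had at most 5 reads in any library.

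**Figure D2:**
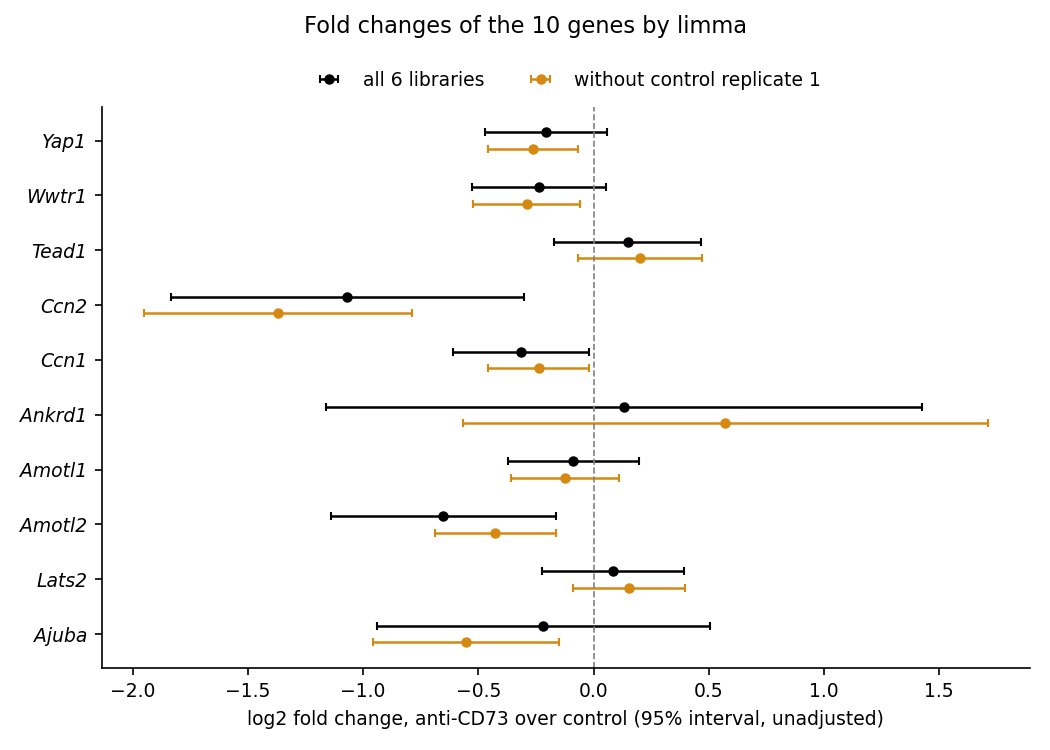
Log2 fold change of anti-CD73 over control (x axis) for the 10 genes with unadjusted 95% intervals from limma, with all 6 libraries (black) and without control replicate 1 (orange). The intervals of Ccn2, Amotl2 and Ccn1 lie below 0 in both fits, those of Yap1, Wwtr1 and Ajuba do so in the orange fit alone, and that of Ankrd1 is the widest.

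Lats2 encodes a kinase that inactivates YAP and is induced by it, and its groups overlapped widely. Lats2 (ENSMUSG00000021959; mm10 chromosome 14, 57689662 to 57746212) had 882, 924 and 801 normalized counts in anti-CD73 replicates 1, 2 and 3, against 902, 849 and 716 in control replicates 1, 2 and 3. Anti-CD73 replicate 2 was the highest library and control replicate 3 the lowest, with the others between them. It differed by 0.08 on the log2 scale (SE 0.13, 95% interval -0.22 to 0.39, adjusted p = 0.796 by limma), by 0.15 without control replicate 1 and by -0.01 without control replicate 3.

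Ajuba encodes a LIM-domain protein that binds LATS kinases and restrains them. Ajuba (ENSMUSG00000022178; mm10 chromosome 14, 54567469 to 54577661) stood at 427, 408 and 611 normalized counts in anti-CD73 replicates 1, 2 and 3, against 345, 773 and 626 in control replicates 1, 2 and 3. Control replicate 1 was the lowest of all 6 libraries and the other controls were the highest, so the groups overlap through it. For Ajuba the log2 fold change was -0.22 (SE 0.31, adjusted p = 0.773 by limma), -0.55 without control replicate 1 (adjusted p = 0.0545) and 0.03 without control replicate 2. DESeq2 without control replicate 1 called it, at -0.52 and an adjusted p of 0.0424, and over the alternatives the adjusted p ranged from 0.0424 to 0.978. Limd1, a LIM protein of the same family, had a mean of 1525 ± 48.4 normalized counts in anti-CD73 libraries and 1368 ± 272 in control libraries (SD, n = 3 each; log2 fold change 0.17, adjusted p = 0.619 by limma), with 0.33 and an adjusted p of 0.0179 without control replicate 1 and 0.00348 to 0.902 over the alternatives. The third family member, Wtip, did not pass the filter.

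Kinases and upstream regulators of the Hippo pathway gave no call. Of the 18 genes listed, 16 passed the filter, 9 lay lower, against 49.5% of all genes tested, and 7 higher. Groups did not overlap for 1 of the 16, against 23.5% of all genes. The median log2 fold change was -0.04, and it turned to 0.09 without control replicate 1. That one was Mob1b, a cofactor of the LATS kinases, at 1056, 937 and 1103 normalized counts in anti-CD73 libraries and 2641, 1472 and 1143 in control libraries. Its log2 fold change was -0.67 (SE 0.28, adjusted p = 0.318 by limma), and -0.33 without control replicate 1, which was by far the highest library. Lats1 had a mean of 1748 ± 143 normalized counts in anti-CD73 libraries and 2142 ± 543 in control libraries, and the kinase gene Map4k4 10434 ± 1288 in anti-CD73 libraries and 8925 ± 1324 in control libraries (SD, n = 3 each). Their log2 fold changes were -0.27 and 0.23, with adjusted p of 0.523 and 0.515 by limma, and without control replicate 1 they were -0.07 for Lats1 and 0.10 for Map4k4. Dchs1, a large protocadherin that signals to the pathway in flies and mammals, failed the filter on its mean with 15, 11 and 13 reads in anti-CD73 libraries and 4, 3 and 7 reads in control libraries. Fat4, the other listed gene that failed the filter, had at most 2 reads in any library. Neither was named by the rule for choosing genes.

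Ratios between related genes within a library do not depend on the library scaling, and 4 such pairs were compared, chosen after the single values were known. The Amotl2 to Amotl1 ratio of normalized counts was 0.267, 0.305 and 0.216 in anti-CD73 replicates 1, 2 and 3, against 0.555, 0.330 and 0.312 in control replicates 1, 2 and 3. It lay below every control in every anti-CD73 library, by -0.57 in mean log2 ratio (exact permutation test, two-sided, p = 0.1, or 0.267 adjusted over the 4 pairs). With 3 libraries against 3, 0.1 is the smallest p the design allows. Without control replicate 1 the difference was -0.30. The Ccn2 to Ccn1 ratio was 0.0177, 0.0155 and 0.0136 in anti-CD73 libraries, against 0.0156, 0.0378 and 0.0316 in control libraries. Here control replicate 1 lay among the anti-CD73 libraries (difference -0.77, exact permutation p = 0.2, adjusted 0.267; -1.16 without control replicate 1).

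The Yap1 to Wwtr1 ratio was almost constant, at 0.623, 0.668 and 0.622 in anti-CD73 libraries and 0.620, 0.599 and 0.655 in control libraries (difference 0.03, exact permutation p = 0.5, adjusted 0.5). The Lats2 to Lats1 ratio was 0.538, 0.546 and 0.419 in anti-CD73 libraries and 0.327, 0.434 and 0.417 in control libraries (difference 0.35, exact permutation p = 0.2, adjusted 0.267). Only anti-CD73 replicate 3 lay within the range of the controls. These ratios follow read counts, which depend on transcript length, and are not ratios of molecules.

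**Figure D3:**
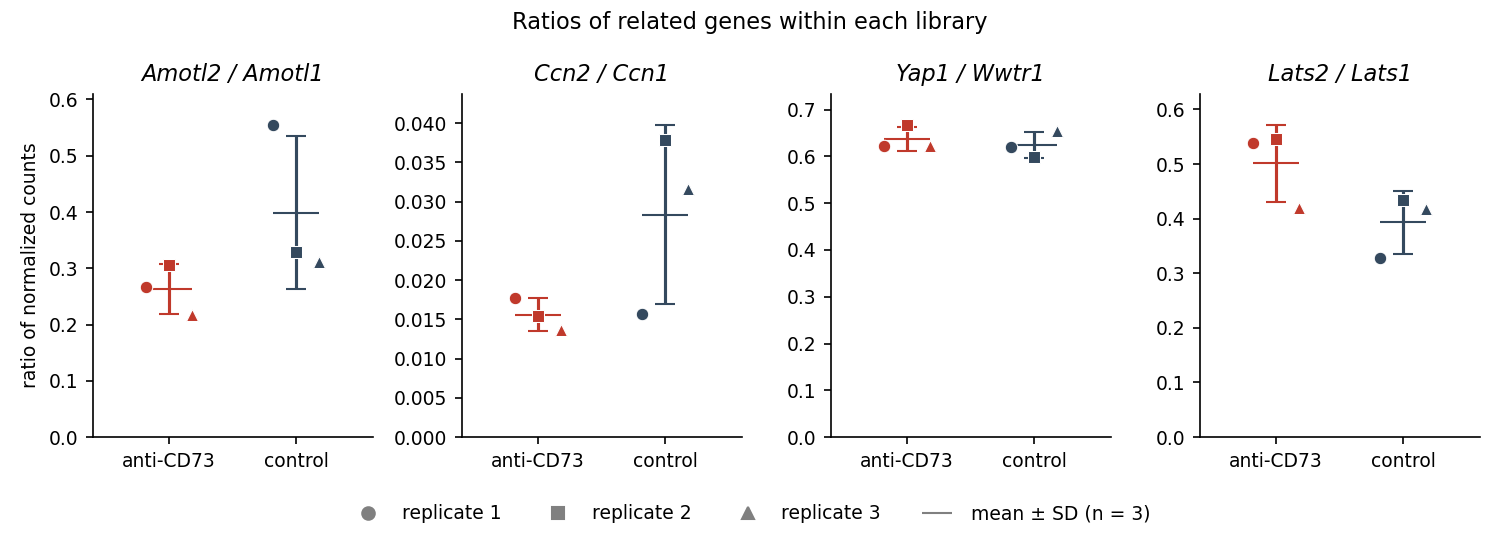
Ratio of the normalized counts of 2 related genes (y axis, linear from 0) in each anti-CD73 library (left, red) and each control library (right, dark blue), with the mean and 1 SD. The Amotl2 to Amotl1 ratio lies below every control, and the Yap1 to Wwtr1 ratio stays between 0.599 and 0.668 in all 6 libraries.

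A wider set of 22 genes, known from human tumours as a signature of YAP and TAZ activity and read here by their mouse symbols, was split. It shares 5 genes with the 10 above. Of the 20 that passed the filter, 10 lay lower and 10 higher, with a median log2 fold change of 0.01 (0.07 without control replicate 1), and none passed the test (0 of 20). Groups did not overlap for 7 of the 20, 6 lower and 1 higher, against 23.5% of all genes in either direction, 12.0% lower and 11.5% higher. This list too was chosen with earlier results of these data known, so the counts are a description. Of the 15 tested genes that are not among the 10, 3 lay below every control and 1 above. Without control replicate 1, limma called 6 of the 20, 5 lower and 1 higher, against 10.3% of all genes lower and 11.9% higher. Foxf2 and Fjx1 had at most 2 reads in any library.

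Beside Ccn2, Amotl2 and Ccn1, the genes below every control were F3, Rbms3 and Myof. F3, which encodes tissue factor, the starter of coagulation, stood at 313, 375 and 330 normalized counts in anti-CD73 replicates 1, 2 and 3, against 652, 480 and 462 in control replicates 1, 2 and 3. The groups did not overlap (log2 fold change -0.63, SE 0.17, adjusted p = 0.178 by limma; -0.48 and 0.0214 without control replicate 1; -0.64 and 0.0369 by DESeq2), and over the alternatives its adjusted p ranged from 0.0152 to 0.665. Myof, which encodes the membrane repair protein myoferlin, had 5735, 5758 and 6274 normalized counts in anti-CD73 libraries and 6367, 8058 and 8242 in control libraries, and its nearest libraries were anti-CD73 replicate 3 and control replicate 1 (log2 fold change -0.34, adjusted p = 0.284 by limma; -0.46 and 0.00477 without control replicate 1, with 2.61e-06 to 0.769 over the alternatives). Rbms3, an RNA-binding protein gene, stood at 54.9, 59.3 and 52.4 normalized counts in anti-CD73 libraries and 87.3, 77.3 and 87.6 in control libraries (log2 fold change -0.59, adjusted p = 0.216 by limma; -0.56 and 0.0753 without control replicate 1, with 0.0753 to 0.684 over the alternatives). Dock5, an activator of the GTPase Rac, had overlapping groups and was called without control replicate 1 (log2 fold change -0.28, adjusted p = 0.397 by limma; -0.40 and 0.0236 without it, with 0.0113 to 0.839 over the alternatives). Rbms3, Myof and Dock5 were chosen for naming after their values were seen.

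In the other direction, Nuak2 lay above every control. This gene encodes a kinase related to AMPK that is known to take part in YAP feedback. Nuak2 stood at 272, 296 and 219 normalized counts in anti-CD73 replicates 1, 2 and 3, against 193, 110 and 100 in control replicates 1, 2 and 3. Control replicate 1 was the control nearest to the anti-CD73 libraries. Its difference was 1.01 on the log2 scale (SE 0.27, adjusted p = 0.178 by limma; 1.30 and 0.00253 without control replicate 1; 0.97 and 0.036 by DESeq2), and over the alternatives its adjusted p ranged from 8.91e-08 to 0.675. The sign of Nuak2 is thus opposite to that of Ccn2, Amotl2, Ccn1 and F3 in the same libraries. Ccdc80, which encodes a matrix protein, had the largest fold change of the 20, 1.13 on the log2 scale, but on 11.3 to 37.1 normalized counts in anti-CD73 libraries and 6.34 to 13.5 in control libraries (adjusted p = 0.34 by limma, chosen for naming after its values were seen).

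The signature also holds Nt5e, the gene of the enzyme that the antibody targets. It had 100, 58.2 and 69.9 normalized counts in anti-CD73 replicates 1, 2 and 3, against 92.4, 55.7 and 67.4 in control replicates 1, 2 and 3, so the ranges nearly coincide (log2 fold change 0.08, SE 0.29, adjusted p = 0.922 by limma; 0.27 without control replicate 1). An antibody acts on the protein, so this level does not check the labels.

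**Figure D4:**
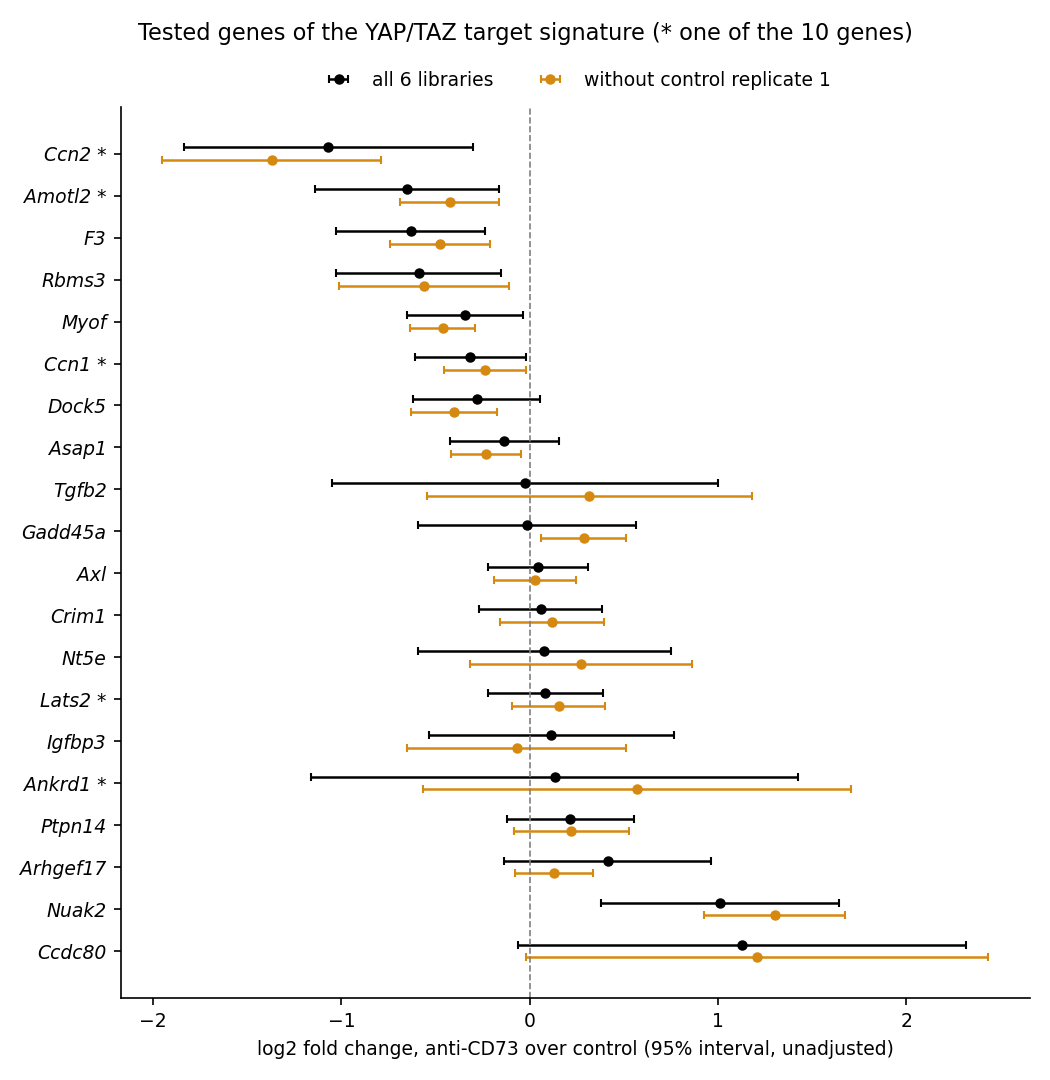
Log2 fold change of anti-CD73 over control (x axis) for the 20 tested genes of the signature, sorted, with unadjusted 95% intervals from limma for all 6 libraries (black) and without control replicate 1 (orange); an asterisk marks a gene that is one of the 10. Of the 20 genes 10 lie on each side of 0 with all 6 libraries. Ccn2 is lowest at -1.07 and Ccdc80 highest at 1.13, with Nuak2 at 1.01.

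Of the summed markers of other cell types, those of fibroblasts and of smooth muscle did not overlap between the groups, and the others did. The sums were not tested, and none of these genes passed the test. The 8 fibroblast markers summed to between 5123 and 6028 normalized counts in anti-CD73 libraries and between 4008 and 5021 in control libraries, and 5 of the 7 tested lay higher. The 6 endothelial markers summed to between 555 and 868 in anti-CD73 libraries and between 210 and 771 in control libraries, and 4 of the 4 tested lay higher. The 5 smooth muscle and pericyte markers summed to between 246 and 336 in anti-CD73 libraries and between 155 and 208 in control libraries, and 2 of the 3 tested lay higher. The fibroblast and the smooth muscle sums lay above every control in all 3 anti-CD73 libraries, and the smooth muscle sums were mostly Acta2. The endothelial sums overlapped through control replicate 1 alone (771, against 266 and 210 in the other controls).

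The 5 macrophage markers summed to between 5275 and 8745 normalized counts in anti-CD73 libraries and between 2769 and 6334 in control libraries, and 5 of the 5 lay higher. These sums too overlapped through control replicate 1 alone, at 6334, with the other controls at 3508 and 2769. The 6 epithelial and tumour cell markers, mostly Krt8, summed to between 2127 and 2703 in anti-CD73 libraries and between 1960 and 4660 in control libraries, and 2 of the 3 tested lay lower. Control replicates 2 and 3, at 3668 and 4660, lay above all anti-CD73 libraries, and control replicate 1 below them. The sum hides markers that went the other way. Krt8 and Krt18 lay lower (log2 fold change -0.43 and -0.29) and Krt19 higher (1.83, adjusted p = 0.488 by limma). Cdh1, which was not tested, had 18.6, 22.2 and 5.14 normalized counts in anti-CD73 libraries and 5.08, 5.07 and 3.74 in control libraries. Epcam, also not tested, had 4.11 to 5.58 in anti-CD73 libraries and 4.49 to 9.14 in control libraries. Krt7 and Krt19 were at 0 in control replicate 1. Of the stromal markers, Tek, Cldn5, Myh11 and Cnn1 were at 0 in at least 1 library, and none was at 0 in all 6. The 5 erythroid markers summed to between 34257 and 127001 in anti-CD73 libraries and between 31565 and 240952 in control libraries, and 5 of the 5 lay lower (median of their log2 fold changes -0.74). The 31565 came from control replicate 1, and the other controls lay above all anti-CD73 libraries. The part of these markers in the differences of Ccn2, Amotl2 and Ccn1 was not tested.

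The profiles of Ccn1 and Ccn2 over the 6 libraries differed in which control was highest, and the genes nearest to each were listed. Likeness was measured as the root-mean-square difference of log2 values, each gene centred on its own mean, over the 6 libraries and 10187 genes with a mean of at least 50. Ccn1 and Ccn2 were 0.549 apart on this scale, which also takes in the larger fold change and the fewer reads of Ccn2. The genes below were picked as the nearest of 10187, so their smaller distances are a description and no test. Nearest to Ccn1 were Ccdc88a (0.0372), Spin1 (0.0457), Socs3 (0.0475), Zfp91 (0.0487) and Cpsf6 (0.0492). Of these, Ccdc88a encodes the actin-binding protein girdin and Socs3 a feedback inhibitor of cytokine signalling. Nearest to Ccn2 were Serpinf1 (0.187), Nos1 (0.205), Ociad2 (0.218), Mzt2 (0.218) and Slc48a1 (0.229), of which Serpinf1 encodes a secreted serpin and Slc48a1 a haem transporter. The member nearest to Ccn1 was Wwtr1 (0.166), followed by Yap1 (0.174), and the member nearest to Ccn2 was Ajuba (0.52).

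**Figure D5:**
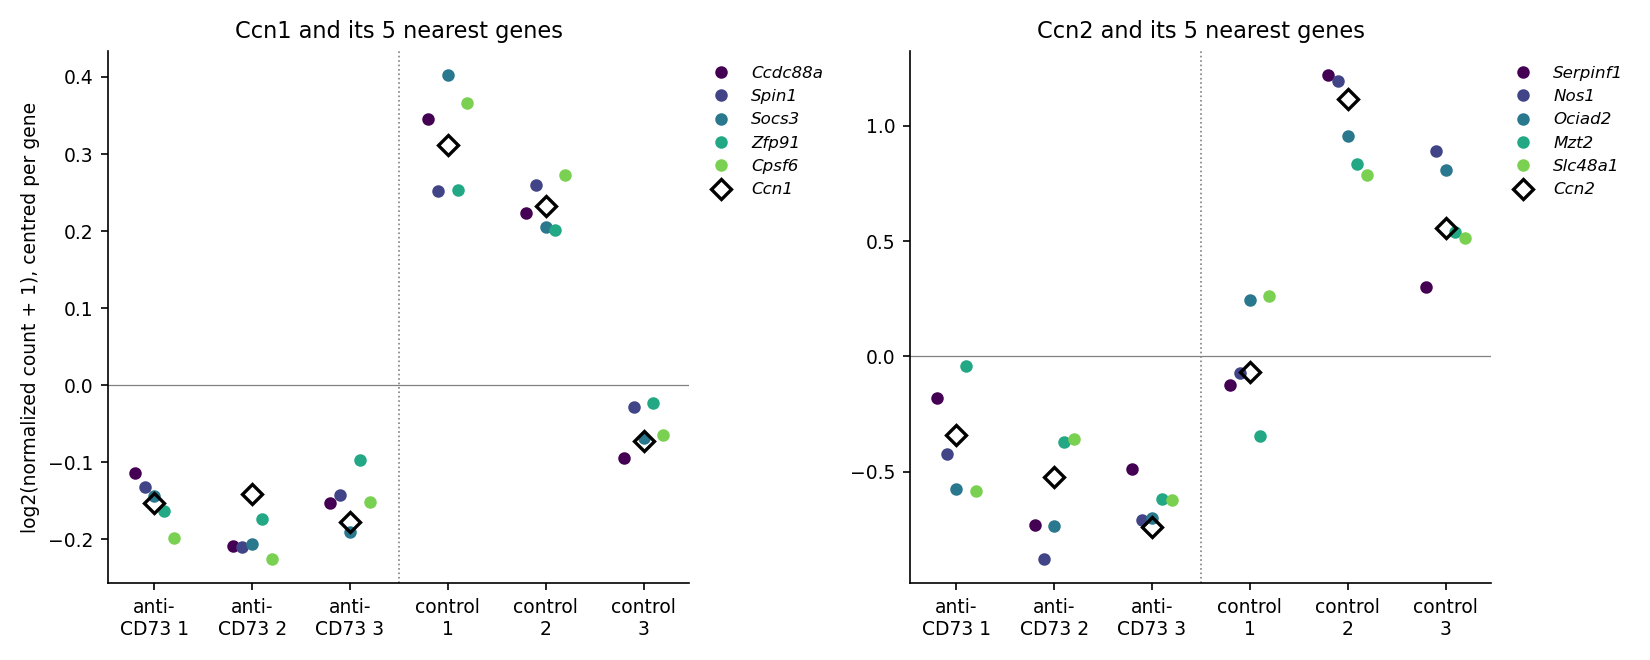
Log2(normalized count + 1), centred on each gene's mean over the 6 libraries (y axis), for Ccn1 (left) and Ccn2 (right), open diamonds, and the 5 genes nearest to each, filled circles, with anti-CD73 libraries left of the dotted line and control libraries right of it. Ccn1 and 4 of its 5 neighbours are highest in control replicate 1 (Spin1 in control replicate 2), whereas Ccn2 and its 5 neighbours are highest in control replicate 2.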

How the data were processed

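RNA was taken up in Trizol, purified with a Direct-zol kit and made into libraries (NEBNext Ultra II), per the labels' protocols. The deposited table holds a signal per gene and library, which the labels call DESeq-normalized counts. Bowtie 0.12.7 and mm10 are named without a role in the submitters' processing notes. No counter, annotation or strand setting is given in the sources used here, so reads of overlapping genes cannot be told apart. Table columns were matched to samples by description, and groups and replicate numbers came from the titles.

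All values were whole multiples of 1 read (100% within 0.01), so reads were recovered by division. Groups were compared with limma-trend (version 3.58.1, in R 4.3.3) with no block and two-sided, on log2(normalized count + 1) of the 12262 genes with a mean of at least 10 and with Benjamini-Hochberg adjustment at 0.05. Fold changes on this scale understate those of low genes. edgeR 4.0.16 and DESeq2 1.42.0 on recovered reads, other pseudocounts, filters and scalings, replicate blocks and each library left out were alternatives. edgeR and DESeq2 without control replicate 1 and the ratios were added after seeing the data. The fit was tested on simulated data.

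The members and lists were chosen with earlier results of these data known. Genes named were the 10 members, the TEAD genes, Nt5e and, of each list, the 3 with the smallest p (Vgll4, Rbms3, Myof, Dock5 and Ccdc80 were added after their values were seen), and for Ccn1 and Ccn2 the 5 nearest genes with a mean of at least 50 that are not predicted genes. Coordinates and promoters are RefSeq's for GRCm38.p6, the assembly of mm10, matched by symbol. For Tead1 and Ccn2 no promoter was used here. Dchs1, Fat4 and other listed genes that failed the filter were named outside the rule for naming genes. No set test was run.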

Additional observations from a re-analysis of the deposited data

How the results depend on the processing

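Over all genes tested, the count of calls was 0 as reported, 595 with DESeq2 and 1780 (14.5% of genes) with the replicate block by description number, and it ranged from 0 to 2724 with each library left out in turn, where the 2724 came without control replicate 1 (2703 by edgeR and 2679 by DESeq2). The count among the 10 members was 0 as reported, 2 with that block, and 0 to 2 with each library left out, with 2 by edgeR and 3 by DESeq2 without control replicate 1. Among all genes of the pathway lists it was 0 as reported, 2 with DESeq2, 5 with that block and 0 to 7 with each library left out, with 7 by edgeR and 8 by DESeq2 without control replicate 1. The remaining settings, including edgeR with all 6 libraries, gave 0 calls in all 3 counts. The replicate block by title number also gave 0, and the deviations of same-numbered samples correlated at 0.189, -0.0963 and 0.262 for numbers 1, 2 and 3, so the numbers were not taken to pair the samples. By description number the correlations were -0.157 and 0.262. Control replicate 1 and anti-CD73 replicate 2 have no partner by that number, so neither adds to the fold changes of that block. Its calls are thus not independent of those made without control replicate 1.

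Of the 27 named genes, 20 kept their direction in each of the 19 alternatives that fitted them. The exceptions were Ankrd1 (-0.175 with quantile normalization, -0.028 by edgeR, -0.0598 by DESeq2, -0.47 to 0.57 with each library left out), Lats2 (-0.0118 to 0.15 with each left out), Ajuba (-0.55 to 0.0264), Tead3 (-0.13 with the block by description number, -0.11 to 0.69 with each left out, -0.0913 by edgeR and -0.0886 by DESeq2 without control replicate 1), Tead4 (-0.0319 by edgeR, -0.0424 by DESeq2, -0.28 with that block, -0.29 to 0.15 with each left out, -0.27 by edgeR and by DESeq2 without control replicate 1), Nt5e (-0.11 with quantile normalization, -0.14 to 0.27 with each left out) and Ccn4 (-0.0179 with quantile normalization, -0.10 to 0.63). The median of the signature was -0.10 with quantile normalization, -0.023 with a mean of at least 50, -0.0412 by edgeR, -0.0652 by DESeq2 and -0.13 to 0.0738 with each library left out. The Yap1 to Wwtr1 log2 ratio ranged from -0.0035 to 0.065. The causes were not tested. Few reads limit Ankrd1, Ccn4 and Ccdc80, with at most 28, 34 and 35 per library, and Ccn2 with at most 103.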
